A study of Mus musculus with 12 samples.

Results

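NFAT5-deficient hematopoietic stem cells (HSC) were compared with NFAT5-deficient multipotent progenitors (MPP), both recovered from mouse bone marrow after transplantation. The members were the 3 arrays whose titles mark them as knockout HSC and the 3 marked as knockout MPP, 6 of the 12 arrays of the series. Donor marrow came from Nfat5 fl/fl Vav-Cre mice, in which Cre recombinase is driven by the Vav promoter, active in blood cells from early in their development. The reference arrays, used for the spread of each gene and for values set beside those of the knockout, came from Nfat5 +/+ Vav-Cre donors, so that both genotypes carried the Cre transgene. All donors were on a CD45.2 background and all recipients were irradiated wild-type CD45.1 mice, so donor cells grew in a host with intact Nfat5. At 13 weeks HSC were sorted as CD48- CD150+ and MPP as CD48+ CD150- cells, each within the compartment that lacks lineage markers and carries Sca-1 and Kit. These gates as given here name neither CD45 form, so they do not by themselves separate donor from recipient cells. From each sample 300 pg of total RNA was amplified and biotin-labelled with NuGEN kits and hybridized to an array of its own. Arrays carry the numbers 64, 70 and 76 in each knockout group. The labels do not say whether arrays came from separate recipients, separate donors or pooled animals, so p-values measure only the spread between these samples, which may be technical.

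HSC sit at the top of the blood system, divide rarely and can rebuild it for life, whereas MPP divide more often, have lost long-term self-renewal and start to express genes of the lymphoid and myeloid lineages. HSC also share surface and granule genes with megakaryocytes, the cells that shed platelets. NFAT5 is a transcription factor of the Rel family best known for switching on osmoprotective genes in hypertonic surroundings.

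Values are log2 intensities, on which a difference of 1 is a doubling, and differences are HSC minus MPP. The table held 19494 named genes, and a gene was called where its limma p-value, adjusted by Benjamini and Hochberg's method over all of them, was under 0.05. Arrays of one group correlated across genes at 0.920 to 0.937 in HSC and at 0.948 to 0.952 in MPP, and HSC arrays correlated with MPP arrays at 0.916 to 0.939. The number of arrays limits the precision: the median gene had a standard deviation of 0.217 over the HSC arrays and 0.196 over the MPP arrays, and a 95% confidence interval of the difference reaching 0.466 to each side. No detection calls were used. Instead, a group mean at or below 6.34, the 95th percentile of the group means of 1091 olfactory receptor genes, was taken as background level, and the size of a difference against such a mean is not resolved. By this measure 8786 genes were at background level in HSC and 9116 in MPP. A second reference, the highest group mean of 6 Y-linked genes, lay at 7.29, that of Sry in wild-type HSC. It put 12760 genes in HSC and 12794 in MPP at or below it.

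The gates were visible in the RNA. Slamf1, which encodes CD150, read 10.67, 10.33 and 9.25 in HSC arrays 64, 70 and 76, and 6.06, 6.90 and 6.41 in the MPP arrays. Cd48 read 5.54, 7.25 and 6.73 in HSC and 10.11, 10.38 and 10.36 in MPP. Both genes kept the populations apart on every array, which follows from the sort. Kit, the stem cell factor receptor gated in both, read 11.06 to 11.64 in HSC and 10.95 to 11.38 in MPP, with overlapping arrays, and Ly6a, which encodes Sca-1, was not analysed here. Nfat5, the targeted gene, read 8.76, 8.34 and 7.62 in HSC and 7.63, 7.73 and 8.40 in MPP. Its arrays overlapped, and the difference of 0.32 (SE 0.35, limma adjusted p = 0.843) was not called. Both means (8.24 and 7.92) were above background level and below the wild-type means of 9.49 in HSC and 8.58 in MPP. Where its probe set lies with respect to the deleted exons is unstated in these sources, so the values do not measure deletion in either population.

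Limma called 41 genes (0.21% of those tested), of which 18 were higher (0.0923%) and 23 lower (0.118%) in HSC. Without a correction, 1540 genes had a p under 0.05 where chance gives 974.7, and 965 of these were higher in HSC. The 3 HSC arrays lay above all 3 MPP arrays for 11.5% of genes and below them for 5.39%. That lean toward higher values moved with the scale. After each array was centred on its median the shares were 7.31% and 7.54%. The median difference over all genes was 0.07, and it was 0.01 after centring. Of all genes, 62.1% had a higher value in HSC, and 52.4% after centring. Counts given for gene lists below stand beside these shares and beside the 1540 of 19494 genes with an unadjusted p under 0.05. For all 41 called genes the 3 HSC and 3 MPP arrays did not overlap. Of the 18 called higher, 9 had an MPP mean at background level, and of the 23 called lower, 15 had an HSC mean there.

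**Figure D1:**
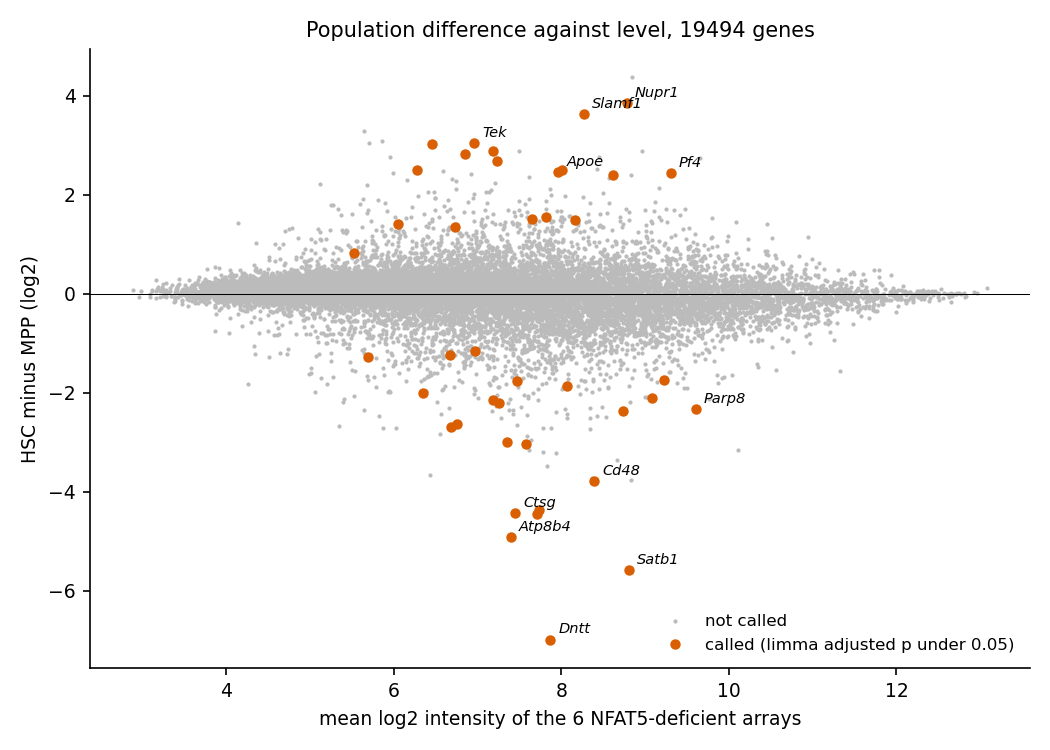
HSC minus MPP difference (log2, vertical axis) against the mean log2 intensity of the 6 NFAT5-deficient arrays (horizontal axis), 1 point per gene, with the 41 called genes in orange. Called genes lay between -6.98 (Dntt) and 3.85 (Nupr1), and uncalled genes of similar size lay among them at middle levels.

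The number of calls depended on single arrays. Leaving out MPP array 64 left 5 calls, HSC array 76 left 6, MPP array 76 left 9, HSC array 70 left 11, MPP array 70 left 15 and HSC array 64 left 24. Wild-type arrays enter through the shared estimate of spread, and without wild-type MPP array 67, HSC array 67 or MPP array 75 there were 17, 20 and 27 calls. The remaining exclusions of wild-type arrays gave 28, 30 and 32. Dntt, Atp8b4, BC035044 and Slamf1 were called in all 12 of these fits, and Tle3 and Taar5 in none of them. Of the 41 called genes, 14 were called in 7 or more of the 12 fits. Called in only 1 were Slc6a15, Pf4, Rab27b, Cd53, Car1, Spdl1, Cnn3, Sepsecs, Rnf113a1, Epb41l3 and Clec2i. Cd48, Mmrn1, Ptn, Bex4, Nkg7 and Atp1b1 were called in 2. With only the 6 NFAT5-deficient arrays in the fit, 12 genes were called, 1 higher and 11 lower.

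The promoters of a few called genes are shown as examples: both sorting markers, by which the populations were defined, the gene with the largest rise, and the granule protease gene with the largest fall. Slamf1 and Cd48 lie 61.9 kb apart on chromosome 1 and moved in opposite directions. Each line gives the 250 bases before the first listed transcription start from RefSeq (GRCm38.p6), 5′ to 3′ on the gene's strand. For Cd48 this window lies inside the RefSeq gene, which begins at base 171681245. Capitals mark matches, on either strand, to any of the 6 motifs searched. These were AGATAA, bound by GATA factors, TGTGGT, bound by RUNX factors, and AGGAAG, bound by ETS factors. The others were the E-box CAGCTG, the related E-box with the letters CAGATG, and the motif TGGAAA, the core of NFAT elements. Matches of different motifs were counted separately, also where they overlapped.
Slamf1, chr1:171766882-171767131, forward strand: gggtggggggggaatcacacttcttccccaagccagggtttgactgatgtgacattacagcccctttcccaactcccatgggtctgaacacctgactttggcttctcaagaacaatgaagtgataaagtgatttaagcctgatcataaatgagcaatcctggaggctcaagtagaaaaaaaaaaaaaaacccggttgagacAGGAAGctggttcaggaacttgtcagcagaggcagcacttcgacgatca
Cd48, chr1:171681742-171681991, forward strand: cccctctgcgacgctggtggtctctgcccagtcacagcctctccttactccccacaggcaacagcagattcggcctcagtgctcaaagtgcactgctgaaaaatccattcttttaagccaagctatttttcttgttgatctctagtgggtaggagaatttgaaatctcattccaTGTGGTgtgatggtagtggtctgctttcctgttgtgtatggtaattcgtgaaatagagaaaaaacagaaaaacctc
Nupr1, chr7:126625471-126625720, reverse strand: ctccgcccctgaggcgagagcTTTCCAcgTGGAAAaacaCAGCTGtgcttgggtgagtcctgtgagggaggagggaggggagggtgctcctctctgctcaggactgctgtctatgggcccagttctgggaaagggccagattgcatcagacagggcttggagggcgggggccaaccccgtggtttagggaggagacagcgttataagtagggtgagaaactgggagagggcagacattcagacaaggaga
Ctsg, chr14:56102575-56102824, reverse strand: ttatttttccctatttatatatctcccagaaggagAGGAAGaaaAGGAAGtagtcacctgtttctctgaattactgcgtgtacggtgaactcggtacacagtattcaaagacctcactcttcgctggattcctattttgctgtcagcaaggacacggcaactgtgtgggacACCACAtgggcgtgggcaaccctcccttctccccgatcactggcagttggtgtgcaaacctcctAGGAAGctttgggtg
In these windows Nupr1 held 2 matches to TGGAAA and 1 to CAGCTG, and Ctsg held 3 to AGGAAG and 1 to TGTGGT. Over 250 bases before to 50 after the start, 15 of the 18 genes called higher and 19 of the 23 called lower had a promoter in the RefSeq table. AGGAAG was present in 57.9% of the promoters of genes called lower, 33.3% of those called higher and 33.6% of the 15683 promoters of all tested genes. TGTGGT was present in 31.6%, 0% and 14.4%, and TGGAAA in 10.5%, 40% and 19.7%, in the same order. For AGATAA the shares were 10.5%, 20% and 9.9%, for CAGCTG 10.5%, 26.7% and 15.5%, and for CAGATG 15.8%, 0% and 14.5%. A match describes the letters of a window and is not a measured binding site, and these shares were not tested.

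Of the 18 genes called higher, 7 belonged to the lists of HSC genes, and Slamf1, which marks HSC in the sort, was another. Nupr1, which encodes a stress-induced nuclear protein, read 9.99, 11.18 and 10.95 in HSC and 6.42, 6.78 and 7.36 in MPP. It rose 14.4-fold (log2 3.85, 95% confidence interval 2.91 to 4.79, limma adjusted p = 0.00986), with every HSC array more than any MPP array. Slamf1 rose 12.3-fold (log2 3.62, interval 2.83 to 4.42, limma adjusted p = 0.00457). Tek, which encodes the angiopoietin receptor TIE2 of stem and endothelial cells, read 7.85, 8.67 and 8.91 in HSC and 6.54, 4.79 and 4.97 in MPP. Its difference was 3.04 (SE 0.45), but MPP array 64 stood above the other MPP arrays and the MPP mean was at background level.

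Secreted and matrix-associated products stood beside the surface genes. Mmrn1, the gene of the platelet and endothelial protein multimerin, read 7.81, 8.49 and 8.51 in HSC and 5.36, 5.36 and 5.60 in MPP. Ptn, which encodes the growth factor pleiotrophin, read 9.51, 9.17 and 9.08 in HSC and 7.36, 6.35 and 6.57 in MPP. Apoe, the apolipoprotein E gene, read 8.89, 9.15 and 9.51 in HSC and 6.86, 6.84 and 6.51 in MPP. For each of the 3 the HSC arrays lay in a narrow band well above MPP. Mmrn1 was at background level in MPP, whereas Ptn and Apoe were above it in both populations and rose 5.65-fold and 5.46-fold. The MPP means of Ptn and Apoe, 6.76 and 6.74, lay below the Y-linked level of 7.29. Clca3a1, a member of the chloride channel accessory family, read 8.02, 9.33 and 8.52 in HSC and 5.87, 6.02 and 5.36 in MPP, a rise of 2.88 from background level.

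Genes of transport and metabolism followed. Abcg3, an ABC transporter gene, read 8.06, 8.61 and 7.22 in HSC and 5.05, 4.96 and 4.83 in MPP. Ces2g, a carboxylesterase gene, read 9.36, 8.34 and 8.02 in HSC and 5.93, 5.85 and 5.89 in MPP. Slc6a15, which encodes a neutral amino acid transporter, read 7.70, 6.98 and 7.88 in HSC and 5.63, 4.97 and 4.46 in MPP. All 3 genes were at background level on every MPP array and above it on every HSC array. They rose by 3.01, 2.68 and 2.5. Of the 12 fits that left out 1 array, Abcg3 was called in 6, Ces2g in 8 and Slc6a15 in only 1.

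Further rises were those of B9d1, Bex4 and Med12l. B9d1, which encodes a protein of the ciliary transition zone, read 8.29, 8.52 and 8.38 in HSC and 6.93, 6.71 and 7.04 in MPP. Bex4, an X-linked gene of the brain-expressed family, read 8.84, 9.06 and 8.81 in HSC and 7.45, 7.48 and 7.33 in MPP. They rose 2.84-fold and 2.80-fold, with the arrays of each population close together. Med12l, which encodes a Mediator complex subunit related to MED12, read 9.53, 9.99 and 9.91 in HSC and 6.67, 7.62 and 7.94 in MPP, and rose 5.26-fold. Ndn, the imprinted growth suppressor necdin, rose by 1.40 and Podxl, the CD34-related sialomucin podocalyxin, by 1.34, each from background level in MPP. Taar5, a trace amine receptor gene, was called at a difference of 0.82 with both populations at background level, so it gives no level in either.

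**Figure D2:**
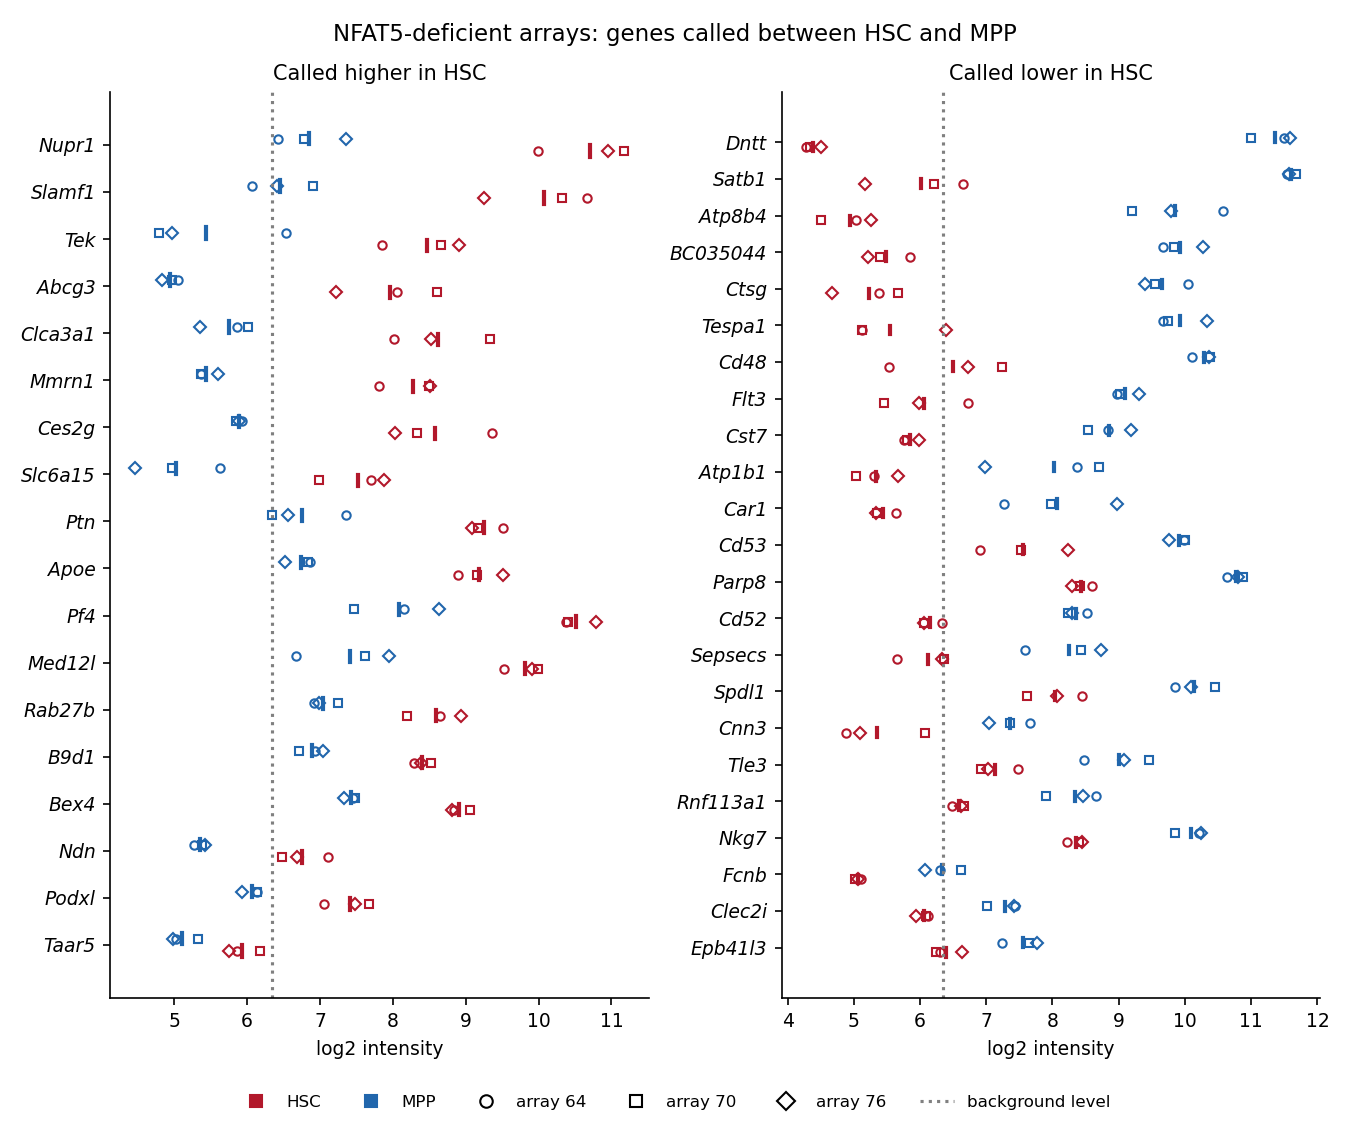
Log2 intensity on each NFAT5-deficient array (horizontal axis) of the 18 genes called higher and the 23 called lower in HSC, with HSC in red, MPP in blue, a vertical bar at each group mean and a symbol for each array number. The dotted line marks background level (6.34), and the populations do not overlap for any gene shown.

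The wider stem cell lists leaned the same way with few calls. Among 23 HSC surface and adhesion genes, 1 was called higher (Tek) and 0 lower, 21 had a higher value in HSC, and for 9 every HSC array was above every MPP array. Over all genes 62.1% had a higher value and 11.5% did not overlap with HSC above. The median difference was 0.64, against 0.07 over all genes. Pdzk1ip1, which encodes a small membrane protein used as a stem cell marker, read 9.74, 10.06 and 10.29 in HSC and 6.94, 8.66 and 7.27 in MPP, a difference of 2.41 (limma adjusted p = 0.0747). The integrin beta 3 gene Itgb3 differed by 2.09 and the C-type lectin gene Clec1a by 1.46, neither called. Procr, which encodes the endothelial protein C receptor used to sort HSC, read 7.81, 7.15 and 6.28 in HSC and 6.54, 8.20 and 7.31 in MPP. Its arrays overlapped, with a difference of -0.27 (SE 0.66) that became 0.15 without MPP array 70 and 0.13 without HSC array 76.

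No transcription factor of the HSC list was called. Of 20 measured, limma called 0, 16 had a higher value in HSC, 7 did not overlap with HSC above, and the median difference was 0.35. The shares over all genes were 62.1% with a higher value and 11.5% not overlapping with HSC above. Without a correction, 6 of the 20 had a p under 0.05, against 1540 of all 19494 genes. Mecom, whose product EVI1 sustains HSC, read 11.60, 11.35 and 10.50 in HSC and 9.98, 10.09 and 9.16 in MPP, a difference of 1.41 (SE 0.37, limma adjusted p = 0.298). Klf12, a zinc finger repressor gene, was at background level in both populations (means 6.29 and 4.95), so the size of its difference, 1.34, is not resolved. Gata2, which encodes a stem cell factor of the GATA family, differed by 0.96. Hlf, Meis1 and Erg, which encode core stem cell factors, were bright in both populations, between 10.60 and 12.11 over all 6 arrays, with differences of 0.17, 0.21 and 0.23.

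Another 23 genes of published HSC signatures held 6 called higher (Nupr1, Clca3a1, Mmrn1, Ptn, Apoe and Ndn) and 0 lower, with a median of 0.70. HSC arrays lay above all MPP arrays for 15 of them and below for 1. That gene was Vldlr, the very low density lipoprotein receptor, at 7.33, 7.49 and 7.80 in HSC and 8.97, 8.87 and 9.53 in MPP, a difference of -1.58 (limma adjusted p = 0.19). Aldh1a1, which encodes a retinaldehyde dehydrogenase, differed by 1.99 (limma adjusted p = 0.0727). Mllt3, whose product supports HSC maintenance, differed by 1.68. Cavin2, a caveola protein gene, spread widely in HSC (7.10, 8.68 and 5.89) over a low MPP level (4.20, 4.09 and 4.24), and its difference of 3.05 had an SE of 0.80 and was not called. Of 11 imprinted growth-restraint genes, Ndn was called higher and the median was 0.15 (0.09 without MPP array 64), with Grb10, an adaptor that restrains growth factor signalling, at 1.74 and the CDK inhibitor gene Cdkn1c at 0.17, neither called.

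Among 17 megakaryocyte and platelet genes, 2 were called higher and 0 lower, 9 did not overlap with HSC above and 1 with HSC below, and the median was 0.56. Pf4, the chemokine platelet factor 4, read 10.37, 10.40 and 10.78 in HSC and 8.16, 7.47 and 8.63 in MPP. It rose 5.40-fold (log2 2.43, interval 1.56 to 3.31, limma adjusted p = 0.0474). Rab27b, a GTPase of platelet granule release, read 8.65, 8.20 and 8.93 in HSC and 6.91, 7.24 and 6.99 in MPP, and rose 2.92-fold. Both were above background level in both populations and did not overlap, but each was called in only 1 of the 12 fits that left out 1 array. Vwf, the von Willebrand factor gene, read 7.5, 6.90 and 5.88 in HSC and 5.77, 5.64 and 5.64 in MPP, a difference of 1.07 that was not called. The integrin alpha IIb gene Itga2b and the platelet glycoprotein gene Gp9 differed by 0.56 and 0.29, and Plek, the gene of the platelet kinase substrate pleckstrin, by -0.83.

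The largest fall in HSC was that of a lymphoid gene. Dntt, the terminal transferase that adds bases at antigen receptor joints, read 4.28, 4.34 and 4.51 in HSC and 11.50, 11.004 and 11.59 in MPP. It fell by 6.98 (SE 0.28, limma adjusted p = 1.82e-06), from one of the brighter levels on these arrays to background. In bulk RNA, fewer cells expressing a gene and less RNA per cell cannot be told apart, here and for the genes that follow. Satb1, a chromatin organizer of lymphoid development, read 6.65, 6.21 and 5.17 in HSC and 11.55, 11.67 and 11.57 in MPP. Flt3, the cytokine receptor that marks lymphoid-primed progenitors, read 6.72, 5.46 and 5.98 in HSC and 8.97, 9.01 and 9.30 in MPP. For both genes the MPP arrays lay close together and the HSC arrays spread around background level, with falls of 5.59 and 3.04.

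Other lymphoid priming genes fell with them. Tespa1, which encodes a signalling protein of developing T cells, read 5.13, 5.12 and 6.39 in HSC and 9.67, 9.75 and 10.33 in MPP. Cd53, a tetraspanin gene of white blood cells, read 6.91, 7.52 and 8.24 in HSC and 9.99, 10.01 and 9.76 in MPP. Cd52, a surface glycoprotein gene of lymphocytes, read 6.33, 6.06 and 6.06 in HSC and 8.52, 8.24 and 8.30 in MPP. Of these, only Cd53 stayed above background level in HSC, and it fell 5.13-fold. Of 19 lymphoid priming genes measured, 6 were called lower and 0 higher, 7 did not overlap with HSC below and 2 with HSC above, and the median was -0.59. Without MPP array 64 the median was -0.31. Il7r, the interleukin 7 receptor gene, read 5.16 to 5.29 in HSC and 5.19 to 6.29 in MPP, at background level in both. The 22 lymphoid transcription factors were split evenly, 11 with a higher and 11 with a lower value. Of them 0 were called and 2 had an unadjusted p under 0.05, against 1540 of all 19494 genes.

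Genes of the primary granule list fell as well. Ctsg, the granule protease cathepsin G, read 5.38, 5.66 and 4.67 in HSC and 10.04, 9.55 and 9.39 in MPP. Cst7, which encodes cystatin F, an inhibitor of granule cathepsins, read 5.76, 5.81 and 5.99 in HSC and 8.84, 8.53 and 9.19 in MPP. Nkg7, a granule membrane protein gene, read 8.22, 8.39 and 8.44 in HSC and 10.21, 9.84 and 10.24 in MPP. Ctsg and Cst7 were at background level on every HSC array and fell by 4.42 and 3.0, whereas Nkg7 kept a clear level in HSC and fell 3.35-fold. Of the 16 genes in the primary granule list, these 3 were called lower and 0 higher. In all, 15 had a lower value, 9 did not overlap with HSC below (5.39% of all genes did so), and the median was -1.36. The list is broader than granule enzymes, and of the 3 called only Ctsg encodes a granule protease. Mpo, Elane and Prtn3, described next, were not called.

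Genes of this list that were not called differed in how steady they were in HSC. Mpo, which encodes myeloperoxidase, read 11.83, 11.57 and 11.65 in MPP but 8.86, 10.45 and 6.30 in HSC, so the HSC arrays spanned more than the difference between the group means, and that difference of -3.15 had an SE of 0.78 (limma adjusted p = 0.272). Elane, the neutrophil elastase gene, read 6.30, 7.09 and 5.72 in HSC and 7.88, 8.42 and 7.90 in MPP, a difference of -1.69 (limma adjusted p = 0.114). In both genes array 70 was the highest and array 76 the lowest of the HSC arrays. Plac8, a small cytoplasmic protein gene of myeloid cells, read 9.79, 10.98 and 10.87 in HSC and 12.11, 12.09 and 12.11 in MPP, and missed the threshold at an adjusted p of 0.0573 by limma. Prtn3, the proteinase 3 gene of the same granules, read 7.89 to 7.95 in HSC and 7.88 to 8.25 in MPP, with a difference of -0.16 (SE 0.21).

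Mature neutrophil genes, which cells of either gate should not hold in quantity, had a median of -0.65 over 13 measured genes, with 1 called lower, 0 higher and 8 not overlapping with HSC below. Only 1 of the 13 was above background level in HSC and 5 in MPP. The mean level of the list was 5.36 to 5.47 on the HSC arrays and 5.96 to 6.53 on the MPP arrays, and its part in the granule gene result was not tested. S100a9, a calcium-binding protein gene of neutrophils, read 6.0, 5.48 and 6.64 in HSC and 9.51, 9.06 and 9.0 in MPP, without overlap but also without a call (difference -3.15, SE 1.0). The called gene was Fcnb, which encodes ficolin B, at 5.11, 5.02 and 5.06 in HSC and 6.30, 6.62 and 6.08 in MPP, both group means at background level. Without MPP array 70 the list median was -0.25. The granule protein genes Mmp8, Ltf and Camp were at background level in HSC with values close to those of MPP.

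**Figure D3:**
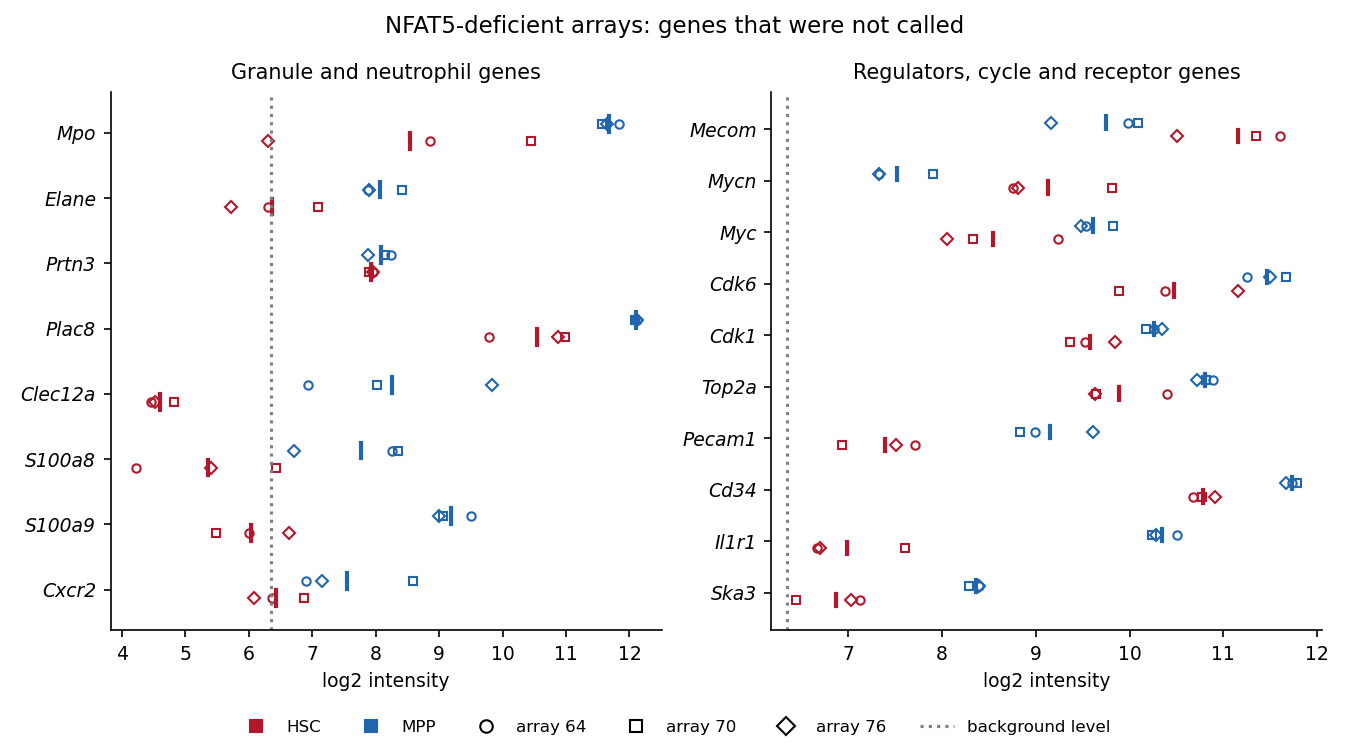
Log2 intensity on each NFAT5-deficient array (horizontal axis) of genes that were not called, with HSC in red, MPP in blue, a vertical bar at each group mean and a symbol for each array number, and a dotted line at background level (6.34). Mpo spans 6.30 to 10.45 over the HSC arrays while its MPP arrays lie between 11.57 and 11.83, and Prtn3 overlaps between the populations.

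Of 23 cytokine receptor genes measured, Flt3 was the 1 called lower and 0 were called higher, 7 did not overlap with HSC below and 1 with HSC above, and the median was -0.27 (-0.18 without MPP array 76). Il1r1, the interleukin 1 receptor gene, read 6.66, 7.61 and 6.70 in HSC and 10.50, 10.24 and 10.28 in MPP, a difference of -3.35 that missed the threshold (limma adjusted p = 0.0687). Il10rb, a chain of the interleukin 10 receptor, differed by -2.10 with the same adjusted p. The receptor of granulocyte colony-stimulating factor, Csf3r, differed by -1.11 and the type I interferon receptor gene Ifnar2 by -0.59, both without a call. Cd34, a sialomucin gene low in adult mouse HSC, read 10.68, 10.77 and 10.92 in HSC and 11.73, 11.79 and 11.67 in MPP, clear of one another but not called (limma adjusted p = 0.166).

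Atp8b4 and BC035044 were in no list and were among the steadiest falls. Atp8b4, which encodes a phospholipid flippase, read 5.04, 4.51 and 5.26 in HSC and 10.58, 9.20 and 9.79 in MPP. BC035044 read 5.84, 5.39 and 5.22 in HSC and 9.67, 9.84 and 10.28 in MPP. Both went from background level in HSC to a bright signal on all MPP arrays, and they fell by 4.92 and 4.44. RefSeq places BC035044 over 3537 bases of Clec2i, a lectin gene on the opposite strand of chromosome 6 that fell by 1.23, and the labels do not state the strand of the probes, so the signals of these genes cannot be told apart with certainty.

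Parp8, a gene of the poly-ADP-ribose polymerase family, read 8.60, 8.41 and 8.30 in HSC and 10.64, 10.87 and 10.80 in MPP. It fell 5.04-fold (log2 -2.33, interval -2.98 to -1.69, limma adjusted p = 0.0158) with a clear level in both. Atp1b1, the beta subunit of the sodium pump, read 5.31, 5.04 and 5.67 in HSC and 8.38, 8.70 and 6.98 in MPP. Car1, a carbonic anhydrase gene of the erythroid lineage, read 5.63, 5.36 and 5.34 in HSC and 7.28, 7.97 and 8.97 in MPP. In both genes the HSC arrays lay at background level and the MPP arrays spread widely. Car1 was the 1 called gene of 13 erythroid genes, whose median was 0.22 (0.11 without MPP array 64 or HSC array 70, 0.13 without HSC array 76), and the related Car2 read 11.29 to 11.45 in HSC and 10.63 to 10.99 in MPP, without overlap in the other direction.

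Cell cycle genes read lower in HSC, and none was called in the lists of dividing cells. Of 24 G2/M and mitosis genes, 21 had a lower value, 6 did not overlap with HSC below and 0 with HSC above, and the median was -0.61. Over all genes 5.39% did not overlap with HSC below and 11.5% with HSC above. Limma called 0 of them, and 6 had an unadjusted p under 0.05. Cdk1, the mitotic kinase, read 9.53, 9.37 and 9.84 in HSC and 10.26, 10.18 and 10.35 in MPP, a difference of -0.69. Top2a, topoisomerase II alpha, read 10.40, 9.64 and 9.63 in HSC and 10.89, 10.81 and 10.72 in MPP. These genes were bright in both populations, did not overlap, and neither was called. The mean level of the list ran from 8.35 to 9.34 on the HSC arrays and from 9.34 to 9.76 on the MPP arrays, and without HSC array 70 the median was -0.26. Spdl1, which encodes the kinetochore protein Spindly and was in no list, read 8.44, 7.62 and 8.06 in HSC and 9.85, 10.46 and 10.09 in MPP, and fell 4.27-fold.

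Of 22 G1/S and replication genes, 18 had a lower value, 4 did not overlap with HSC below, the median was -0.29, and limma called 0, with 3 at an unadjusted p under 0.05. Uhrf1, which couples DNA methylation to replication, differed by -0.86 (limma adjusted p = 0.29). The D cyclin gene Ccnd2 differed by 0.65 and the kinase gene Cdk6 by -1.0, opposite in direction and both without overlap or a call. The related transcription factor genes Mycn and Myc also lay on opposite sides. Mycn read 8.75, 9.81 and 8.81 in HSC and 7.32, 7.90 and 7.33 in MPP, and Myc read 9.24, 8.33 and 8.06 in HSC and 9.53, 9.83 and 9.48 in MPP. The differences were 1.61 (limma adjusted p = 0.143) and -1.07 (0.483), with no overlap in either gene.

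Lists of metabolism, stress and innate sensing genes had medians near that of all genes and held no call. In all, 27 lists held no called gene by limma, among them the HSC transcription regulators and the G1/S and G2/M lists described above. Of the 457 genes in these 27 lists, 65 had an unadjusted p under 0.05, against 1540 of all 19494 genes. The lists were chosen with earlier results of these data known, and all genes include many at background level. The larger share in the lists is therefore not read as an excess. Medians were -0.07 for 26 oxidative phosphorylation genes, -0.10 for 18 glycolysis enzymes (-0.22 with HSC array 70 left out, -0.02 with HSC array 64 or 76 left out), 0.15 for 20 autophagy and lysosome genes (0.06 without MPP array 70 and 0.0006 without HSC array 70), 0.09 for 20 FoxO and antioxidant genes and -0.00 for 18 cytosolic ribosomal protein genes. The 27 type I interferon-stimulated genes had a median of -0.05 and the 18 interferon induction and sensing genes -0.06. Tlr7, an endosomal RNA sensor gene, read 4.50, 5.0 and 4.54 in HSC and 7.25, 6.35 and 8.54 in MPP, at background level in HSC and widely spread in MPP (limma adjusted p = 0.19). Sting1, the adaptor of cytosolic DNA sensing, read 6.81, 6.32 and 6.35 in HSC and 7.65, 8.03 and 7.67 in MPP, a difference of -1.29 that was not called. The 10 osmotic stress and NFAT5 target genes measured had a median of 0.19 (0.08 without HSC array 64), 6 with a higher value and 4 with a lower one, and the taurine transporter gene Slc6a6, a target in hypertonic cells, differed by 0.44 (SE 0.25).

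The remaining lists held no call either. Medians were 0.03 for 14 myeloid transcription factors, -0.04 for 17 niche retention and adhesion receptors, 0.08 for 22 TGF-beta pathway genes and -0.04 for 15 MYC network genes. They were 0.08 for 14 CDK inhibitors, D cyclins and their kinases, 0.13 for 18 immediate early genes, 0.04 for 15 p53 targets and -0.07 for 20 polycomb and DNA methylation genes. The 14 MHC class I presentation genes had a median of 0.02 and the 9 MHC class II genes -0.38. After median centring the myeloid, p53 and MHC class I medians turned to -0.03, -0.02 and -0.04, and the ribosomal median was 0.02 after quantile normalization. Leaving out 1 array in turn gave medians of both signs in 13 of the 38 lists, so no direction is read from them. Among them, the interferon-stimulated median was 0.13 without HSC array 76, the interferon sensing median 0.05 without MPP array 70 and the niche median 0.09 without MPP array 76. The polycomb median was 0.16 without HSC array 76, that of CDK inhibitors and cyclins -0.06 without HSC array 64, and the MYC network median 0.01 without MPP array 64. The others were the myeloid and lymphoid transcription factor, p53, MHC class I, ribosomal, B cell and Y-linked lists. The MHC class II median was -0.16 without HSC array 76 and -0.25 without MPP array 76. Other medians of this size moved as well, those of the immediate early genes to 0.05 without MPP array 76 and 0.25 without MPP array 70, and those of the TGF-beta, FoxO and oxidative phosphorylation lists to 0.04, 0.05 and -0.04 without HSC array 70. Bmi1, which encodes a polycomb protein needed by HSC, read 7.04, 7.33 and 7.13 in HSC and 8.24, 8.44 and 9.17 in MPP, without overlap but not called (limma adjusted p = 0.457). H2-Ob, a class II chaperone gene, differed by -1.73 and H2-Eb1, a class II chain gene, by 0.86.

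**Figure D4:**
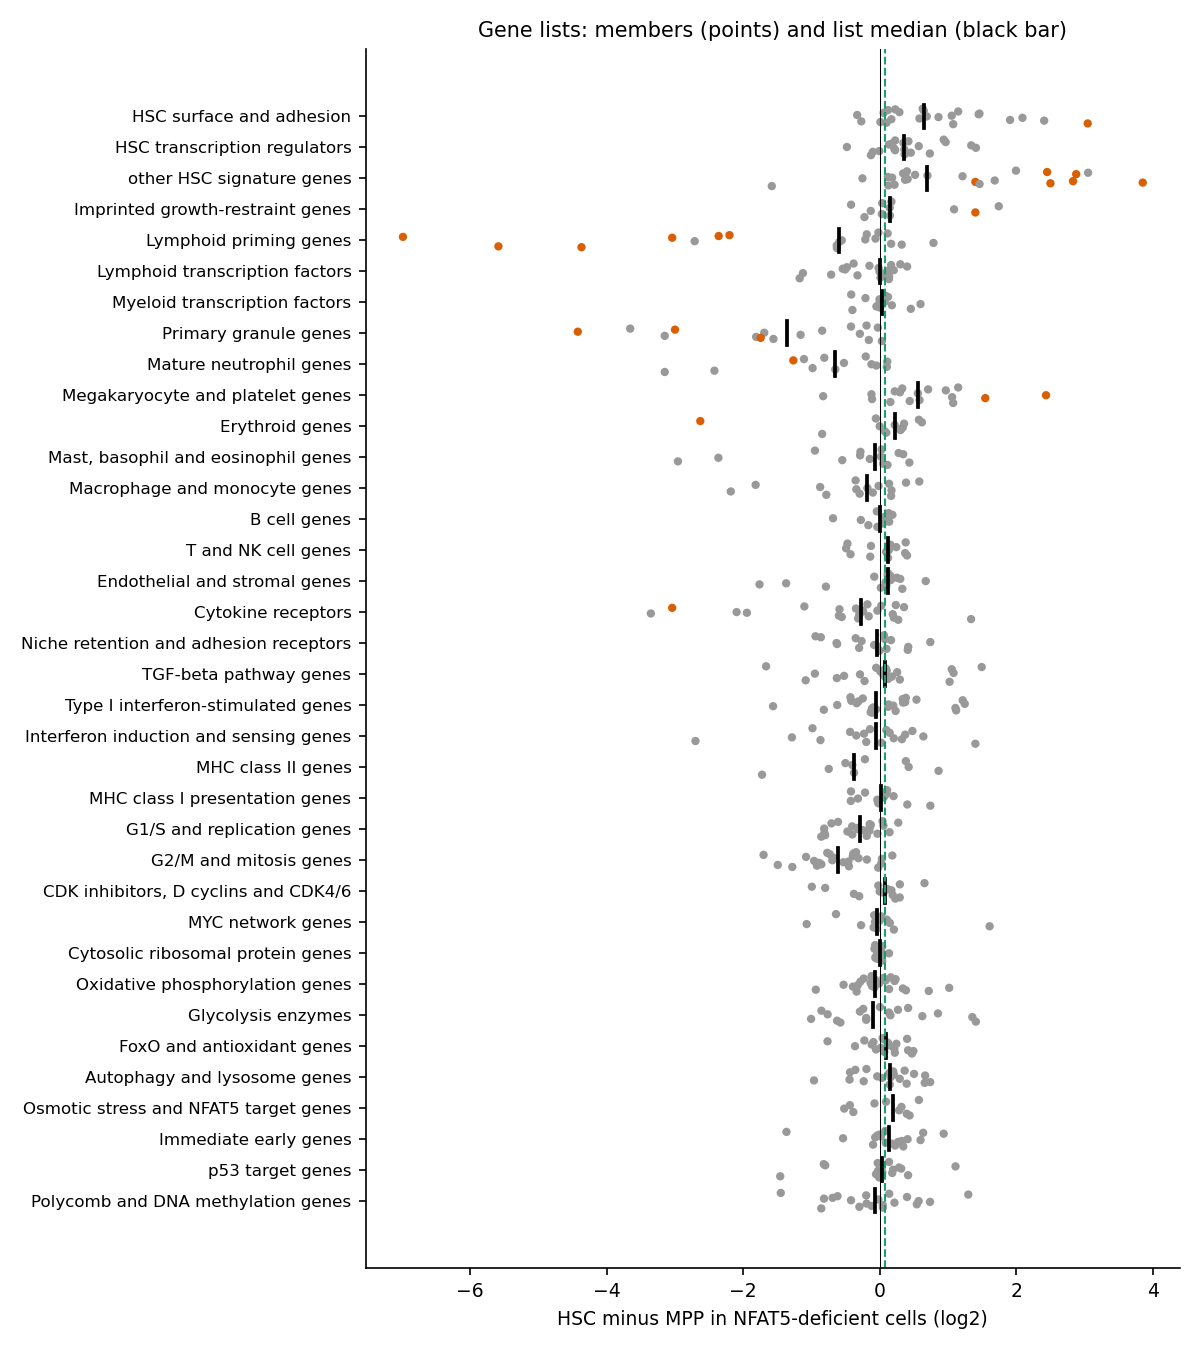
HSC minus MPP difference in NFAT5-deficient cells (log2, horizontal axis) for each member of 36 gene lists, with called genes in orange, list medians as black bars and the median of all genes (0.07) as a dashed green line. Primary granule genes have the lowest median of the lists shown (-1.36) and other HSC signature genes the highest (0.70).

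Markers of other mature cells were mostly at background level. B cell genes were above it for 3 of 10 in HSC and 2 of 10 in MPP, and T and NK cell genes for 2 and 3 of 14. Macrophage and monocyte genes were above it for 4 and 5 of 15, and mast cell, basophil and eosinophil genes for 3 and 5 of 14. Differences in these lists went both ways. Of the 14 mast, basophil and eosinophil genes, 7 read higher in HSC and 7 lower (median -0.07). For the 15 macrophage and monocyte genes the split was 5 and 10 (median -0.18). Every HSC array lay above every MPP array for Prss34 (difference 0.43) of the former list and C1qa (0.58) of the latter. C1qa was at background level in both populations. Some genes that read lower in HSC stood out, and these varied between MPP arrays. Prg2, an eosinophil granule gene, read 9.15, 7.46 and 10.72 in MPP and 5.79 to 6.38 in HSC. The basophil protease gene Mcpt8 read 8.52, 6.77 and 9.76 in MPP, and the monocyte surface gene Ly6c2 read 7.80, 6.16 and 8.85. In all 3, MPP array 76 was the highest and MPP array 70 the lowest, and all HSC arrays lay below the MPP arrays. Their part in the lower myeloid values of HSC was not tested. Among 15 endothelial and stromal genes, 11 read higher in HSC and 4 lower (median 0.12). Pecam1, the adhesion molecule PECAM-1, was 1 of those lower, at 7.71, 6.93 and 7.51 in HSC and 9.0, 8.83 and 9.61 in MPP. Its difference was -1.76 (limma adjusted p = 0.065). Kdr, which defines endothelium, was at background level in both. Its HSC arrays lay above its MPP arrays (difference 0.67, limma adjusted p = 0.113), a size that is not resolved.

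The values of the wild-type comparison, which used other arrays but the same estimate of each gene's spread, were set beside those of NFAT5-deficient cells. There, limma called 32 genes (0.164%). Of the 41 genes called in NFAT5-deficient cells, 39 had the same sign in wild-type cells, and for 35 the wild-type arrays did not overlap in that direction. The shares of all genes meeting either condition are not given here, so neither count is read as an excess. The difference was larger in size in NFAT5-deficient cells for 33 of the 41. Selection for a call in those cells favours this direction. The test of the difference between the 2 effects called 0 genes (0%), with a smallest adjusted p of 0.0549 by limma. At an unadjusted p under 0.05 there were 816 genes, below the 974.7 that chance gives.

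A group of called genes read nearly level between wild-type HSC and MPP. Tle3, a Groucho corepressor gene, read 7.47, 6.91 and 7.03 in NFAT5-deficient HSC and 8.47, 9.46 and 9.09 in MPP. In wild-type cells it read 8.01, 8.18 and 7.62 in HSC and 7.86, 7.67 and 7.26 in MPP. The populations were thus apart in one genotype (-1.87) and overlapped in the other (0.34), but the difference between these effects, -2.21 (SE 0.43), had an adjusted p of 0.739 by limma. Rnf113a1, a RING finger gene, differed by -1.76 and -0.09, Sepsecs, which encodes the enzyme that makes selenocysteine on its tRNA, by -2.14 and -0.30, and Spdl1 by -2.09 and -0.40. Epb41l3, a cytoskeletal adaptor of the band 4.1 family, differed by -1.16 and -0.14. Podxl differed by 1.34 and 0.40, and was not level in wild-type cells, where every HSC array (6.30 to 6.84) lay above every MPP array (6.06 to 6.27). Fcnb, at background level in both NFAT5-deficient populations, differed by -1.27 and 0.28 and had the smallest interaction p of the called genes (2.1e-05, limma adjusted p = 0.204). In all, 10 of the 41 called genes had an unadjusted interaction p under 0.05, the others being Ndn, Clec2i and Taar5, and none passed after adjustment, so a change with genotype was not shown for any of them. Cnn3, which encodes an actin-binding calponin, differed by -2.0 and -1.12. It was not level in wild-type cells, where every HSC array lay below every MPP array.

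**Figure D5:**
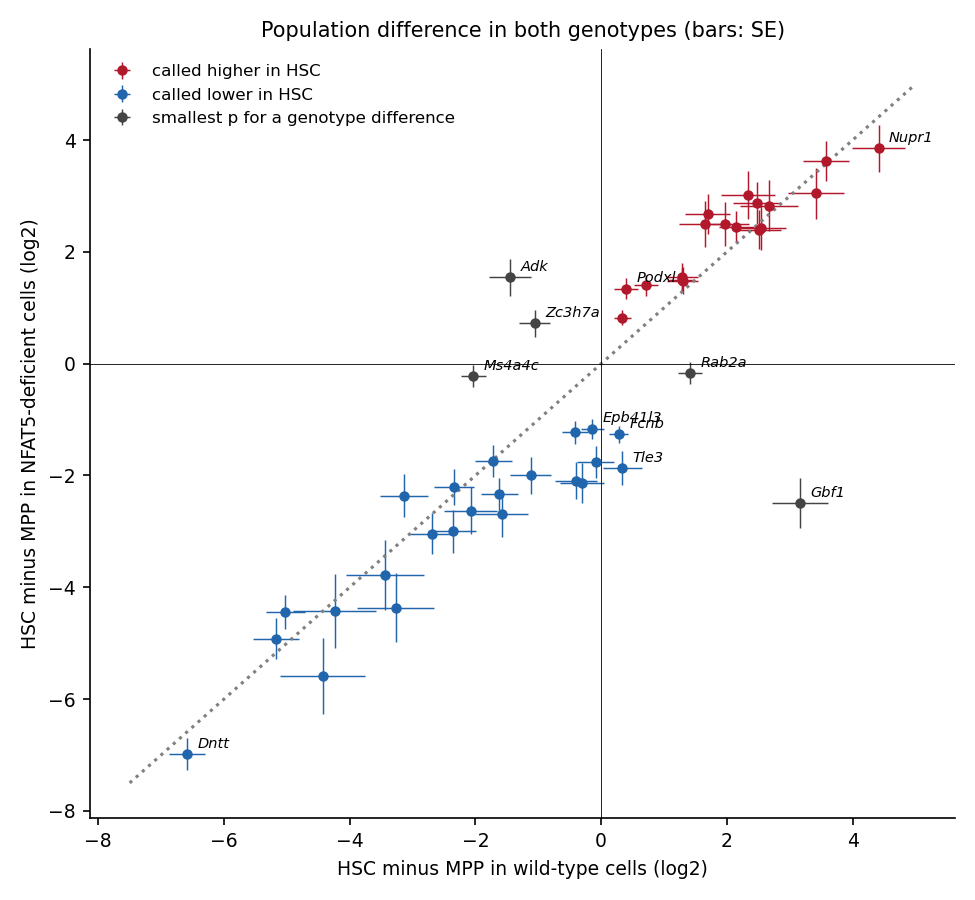
HSC minus MPP difference in NFAT5-deficient cells (log2, vertical axis) against that in wild-type cells (log2, horizontal axis), with standard errors as bars and equality dotted. Shown are the 41 called genes and 5 others taken for the smallest p for a difference between genotypes within each direction. Most called genes lie near the dotted line, Tle3, Fcnb and Epb41l3 lie near 0 on the wild-type axis, and no difference between genotypes was called.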

How the data were processed

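The deposited table held RMA-summarised log2 intensities of 12 single-colour arrays, per the submitters' processing notes, which name RMA and limma without versions. The authors' array build and annotation are not given in the sources used here. GEO's platform annotation named 19527 of 22142 probe sets with 1 gene, none with several, and 2615 with none. For 33 genes with several probe sets the one with the highest mean was kept, leaving 19494 genes. Group means of 4 groups were fitted in limma 3.58.1 (R 4.3.3) with an intensity trend in the variance prior. P-values were adjusted over all genes by the Benjamini-Hochberg method. Further normalization was tried only as an alternative. The procedure was tested on simulated data.

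The members, gene lists and motifs were chosen with earlier results of these data known. Of the 38 lists, 609 genes were measured, and 72 genes written into a list were not analysed here. Named genes are Nfat5, the sorting markers, every called gene, up to 6 called members per list (or the 2 with the smallest p), the strongest differences between genotypes, and further list members chosen after their values were seen. Array values are given for the largest rises and falls. Alternatives covered a filter on dim genes, robust and untrended variance priors, only the groups compared, median centring, quantile normalization, array weights, other probe set rules, a replicate block, stricter and looser thresholds, and fits without 1 array at a time. Scan and hybridization batches are not given in the sources used here. Promoters are the first listed per gene. Python 3 and matplotlib drew the figures.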

Additional observations from a re-analysis of the deposited data

Results flagged for a closer look

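In 67 of the 19494 genes the NFAT5-deficient HSC and MPP arrays did not overlap in one direction and the wild-type arrays did not overlap in the other. The 3 described here are those found among the genes taken for the smallest interaction p-values, up to 3 in each direction. That choice left out Postn, which differed by -2.07 in NFAT5-deficient and 0.85 in wild-type cells (limma adjusted p of the difference 0.571). The difference between the effects was tested with limma, and none of the 3 passed. Gbf1, which encodes an exchange factor for ARF GTPases at the Golgi, read 6.28, 7.73 and 7.83 in NFAT5-deficient HSC and 10.20, 9.57 and 9.55 in MPP. In wild-type cells it read 9.997, 9.29 and 9.35 in HSC and 6.61, 6.79 and 5.76 in MPP. The population difference was thus -2.49 in one genotype and 3.16 in the other, -5.65 apart (SE 0.63, adjusted p = 0.0549 by limma), with no overlap in either. Adk, the adenosine kinase gene, differed by 1.54 in NFAT5-deficient and -1.45 in wild-type cells, 2.99 apart (SE 0.47, limma adjusted p = 0.303). Its NFAT5-deficient arrays read 8.37, 9.34 and 8.57 in HSC and 6.92, 7.05 and 7.69 in MPP. Zc3h7a, a zinc finger gene, differed by 0.72 and -1.06, 1.78 apart (SE 0.34, limma adjusted p = 0.739). Since they were chosen by that p, their size is a description.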

How the results depend on the processing

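Against 41 calls, limma called 23 genes with a robust variance prior, 23 after quantile normalization, 12 with only the groups compared in the fit and 22 over all probe sets, but 59 with array weights, 46 with dim genes filtered out and 44 after median centring. At adjusted thresholds of 0.10 and 0.01 it called 62 and 5, and leaving out single arrays gave 5 to 32. Without HSC arrays 70 (NFAT5-deficient) and 66 (wild-type), which correlated least with the other arrays of their own group (mean r 0.923 and 0.899), a setting chosen after seeing the data, it called 23, of which 16 were among the 41. Same-numbered HSC and MPP arrays did not deviate together (r of 0.016, -0.003 and -0.014 for numbers 64, 70 and 76). This does not show whether they came from the same animal, and they were not treated as pairs. With the number as a replicate block 3 genes were called (1564 at an unadjusted p under 0.05), and with the block on the 6 NFAT5-deficient arrays alone, also added later, 0 (1670 at an unadjusted p under 0.05). The test between genotypes called 1 gene with dim genes filtered out, 1 at a threshold of 0.10, and 0 to 1 without single arrays. In wild-type cells limma called 9 genes with only those groups fitted, 5 with the replicate block, 18 without those 2 HSC arrays, 72 and 7 at thresholds of 0.10 and 0.01, and 11 to 30 without single arrays, against 32. Procr (-0.27) ran from -0.68 without MPP array 64 to 0.15 without MPP array 70, and was also positive without HSC array 76 (0.13). No other named gene changed sign in these settings. Of the 41 genes, 24 were at background level in at least 1 population, so the size of their difference is not resolved. By the Y-linked level of 7.29, 21 of the 41 were at background in HSC and 17 in MPP. Those in MPP then include Nupr1, Slamf1, Ptn, Apoe, Rab27b and B9d1.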

Other observations

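Between adjusted p-values of 0.05 and 0.10 lay 21 further genes, 4 of them higher and 17 lower in HSC, which brings the count at 0.10 to 62. The largest difference among them was that of Itsn1, which encodes the endocytic scaffold intersectin 1, at 11.06, 11.57 and 10.46 in HSC and 7.82, 6.15 and 6.01 in MPP (difference 4.37, SE 0.83, limma adjusted p = 0.0947). Cd244a, a SLAM family receptor gene like Slamf1 and Cd48, read 6.27, 5.93 and 6.91 in HSC and 8.69, 9.48 and 8.29 in MPP, a difference of -2.45 without overlap. Ercc6l2, a helicase gene, differed by -3.19 and Tbce, which encodes a tubulin folding cofactor, by -2.50, against -0.79 and 0.35 in wild-type cells. These genes were chosen after their values were seen.

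Of the 2615 probe sets with no gene name, 0 were called by limma when all 22142 probe sets were tested together, a fit that called 22 named genes.

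Beside Gbf1, Adk and Zc3h7a, small interaction p-values also belonged to called genes such as Fcnb (difference -1.27) and Tle3 (-1.87). In other genes with a small interaction p the populations differed little in NFAT5-deficient cells. Ms4a4c, a membrane protein gene at background level there in both populations, differed by -0.22 there and by -2.03 in wild-type cells (limma adjusted p of the difference 0.303). Rab2a, a GTPase gene of Golgi traffic, differed by -0.17 and 1.41 (limma adjusted p of the difference 0.561).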
